A study of Mus musculus with 16 samples.

Results

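The genes described here make, assemble and export immunoglobulin A (IgA) in the gut. They are the antibody chain genes Igha, Ighm and Igkc, the joining chain gene Jchain, the plasma cell genes Mzb1, Tnfrsf17, Derl3, Xbp1 and Sdc1, and the epithelial receptor gene Pigr. These 10 genes were picked by symbol from the 46078 genes of the deposited count table, and all 10 were counted in all 16 libraries. RNA was sequenced from mucosa of the ileum of C57Bl/6 mice that either lacked the Schlafen family gene Slfn3 (Slfn3KO, a constitutive knockout) or were wild-type (WT) littermates, and the labels name no treatment. Each genotype had 4 mice labelled male and 4 labelled female, 8 weeks old by the labels, while the study's methods give an older age. The study asked how loss of Slfn3 changes the mucosa of each sex.

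IgA is the antibody of mucosal surfaces. Plasma cells under the gut epithelium make it, the joining chain links IgA units together, and the polymeric immunoglobulin receptor encoded by Pigr takes the linked IgA across the epithelial cells into the lumen. B cells of the lymphoid follicles carry IgM and IgD on their surface with the signalling chain Cd79a, which plasma cells largely lose, and switch to IgA before they become plasma cells.

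Between 20823279 and 30813117 counts per library fell on genes, and 3 counts, taken as the detection floor, amounted to 0.0974 to 0.144 CPM (counts scaled to a library total of 1000000). Slfn3 itself was almost uncounted. It had a median of 3 counts and at most 19 in WT libraries, where 1 of 8 was at 0, and at most 2 counts in Slfn3KO libraries, where 6 of 8 were at 0. Outside WT libraries 3 and 4, libraries of either genotype had at most 2 Slfn3 counts if labelled male and at most 4 if labelled female. In WT libraries 3 and 4 of both labelled sexes the sex transcripts went against the label. Xist had 9652 and 12851 counts in those 2 labelled male and 0 and 3 in those 2 labelled female. Ddx3y had 0 and 1 counts in those labelled male and 1014 and 1134 in those labelled female. The WT group of each labelled sex therefore held 2 libraries with the sex transcripts of the other. Sex follows the labels throughout, also as a covariate or stratum, and males and females below are those labelled so. Member and pathway results that turn on WT libraries 3 and 4 are therefore also given without these 4 libraries. Summed over 10 epithelial markers, libraries held 19292 to 53408 CPM, and the 4 ileum markers summed to 2954 to 17704 CPM. The 4 markers of duodenum and jejunum summed to 57.5 to 4917 CPM. They exceeded the ileum markers in female WT 1, at 4917 against 3298 CPM, and in male Slfn3KO 4, at 4473 against 4094 CPM. In male WT 2 they came close, at 2689 against 2954 CPM. The 10 markers of pancreatic acinar cells summed to at most 0.272 CPM.

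The antibody chains and the joining chain were abundant and varied widely within each genotype. Igha, the heavy chain constant gene of IgA (chr12:113254830-113260236, minus strand, GRCm38), is counted over its exons. In libraries labelled female it stood at 1212, 509, 2944 and 1219 CPM in WT 1 to 4 and at 2280, 3238, 1153 and 1371 CPM in Slfn3KO 1 to 4. In libraries labelled male it stood at 1469, 718, 2166 and 670 CPM in WT 1 to 4 and at 298, 1916, 3403 and 2158 CPM in Slfn3KO 1 to 4. The genotypes overlapped in both sexes, and the lowest and the highest library of all 16 were both male Slfn3KO. The log2 fold change of Igha in Slfn3KO against WT was 0.54 ± 0.44 (SE, n = 8 against 8, adjusted p = 0.642 by edgeR's quasi-likelihood test with labelled sex as a covariate).

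Jchain, the joining chain gene (chr5:88519809-88527891, minus strand), followed Igha closely from library to library. In libraries labelled female it stood at 194, 100, 598 and 265 CPM in WT 1 to 4 and at 402, 619, 200 and 266 CPM in Slfn3KO 1 to 4. In libraries labelled male it stood at 260, 138, 421 and 172 CPM in WT 1 to 4 and at 64, 363, 743 and 360 CPM in Slfn3KO 1 to 4. The order of the libraries was close to that of Igha, with counts of Igha between 3.9 and 6.26 times those of Jchain in every library. The log2 ratio of Jchain to Igha was -2.40 ± 0.14 in Slfn3KO and -2.34 ± 0.20 in WT (SD, n = 8 each), a difference of -0.06 with p = 0.502 when genotype labels were exchanged within labelled sex (exact permutation, two-sided). Without WT libraries 3 and 4 the difference was 0.07, with p = 0.44 in the same permutation test. The log2 fold change of Jchain was 0.49 ± 0.44 (SE, adjusted p = 0.666, edgeR).

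Igkc, the constant gene of the kappa light chain (chr6:70726435-70726966, plus strand), spanned 353 to 1954 CPM in WT with a median of 857, and 193 to 2112 CPM in Slfn3KO with a median of 1260. Its log2 fold change was 0.36 ± 0.44 (SE, adjusted p = 0.748, edgeR). There were between 0.579 and 0.901 Igkc counts for each Igha count, with the 2 highest values in female WT 4 and male WT 4. Among light chain constant genes, on the scale of CPM per kilobase of exon (RPKM), Igkc made up 85.7% to 98.3% of the sum in every library. All immunoglobulin genes together took between 0.058% and 0.718% of the counts of a library.

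Ighm, the heavy chain constant gene of IgM (chr12:113418558-113422730, minus strand), was the member that varied most. In libraries labelled female it stood at 12.7, 65.4, 214 and 275 CPM in WT 1 to 4 and at 15.3, 6.91, 26.6 and 7.86 CPM in Slfn3KO 1 to 4. In libraries labelled male it stood at 4.9, 5.75, 410 and 86.6 CPM in WT 1 to 4 and at 2.67, 5.79, 48.8 and 49.8 CPM in Slfn3KO 1 to 4. The 4 highest libraries were WT 3 and 4 of both labelled sexes, and WT 1 of each sex lay within the range of Slfn3KO. The log2 fold change over all mice was -2.78 ± 0.92 (SE, adjusted p = 0.327, edgeR). Without WT libraries 3 and 4 it was -0.02 ± 1.01 (SE, 8 against 4, adjusted p = 0.996, edgeR). In bulk RNA, fewer cells of a type and less RNA per cell cannot be told apart. Cd79a, the B cell marker, spanned 0.736 to 89 CPM in WT with a median of 16, and 0.252 to 15 CPM in Slfn3KO with a median of 2.81.

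**Figure D1:**
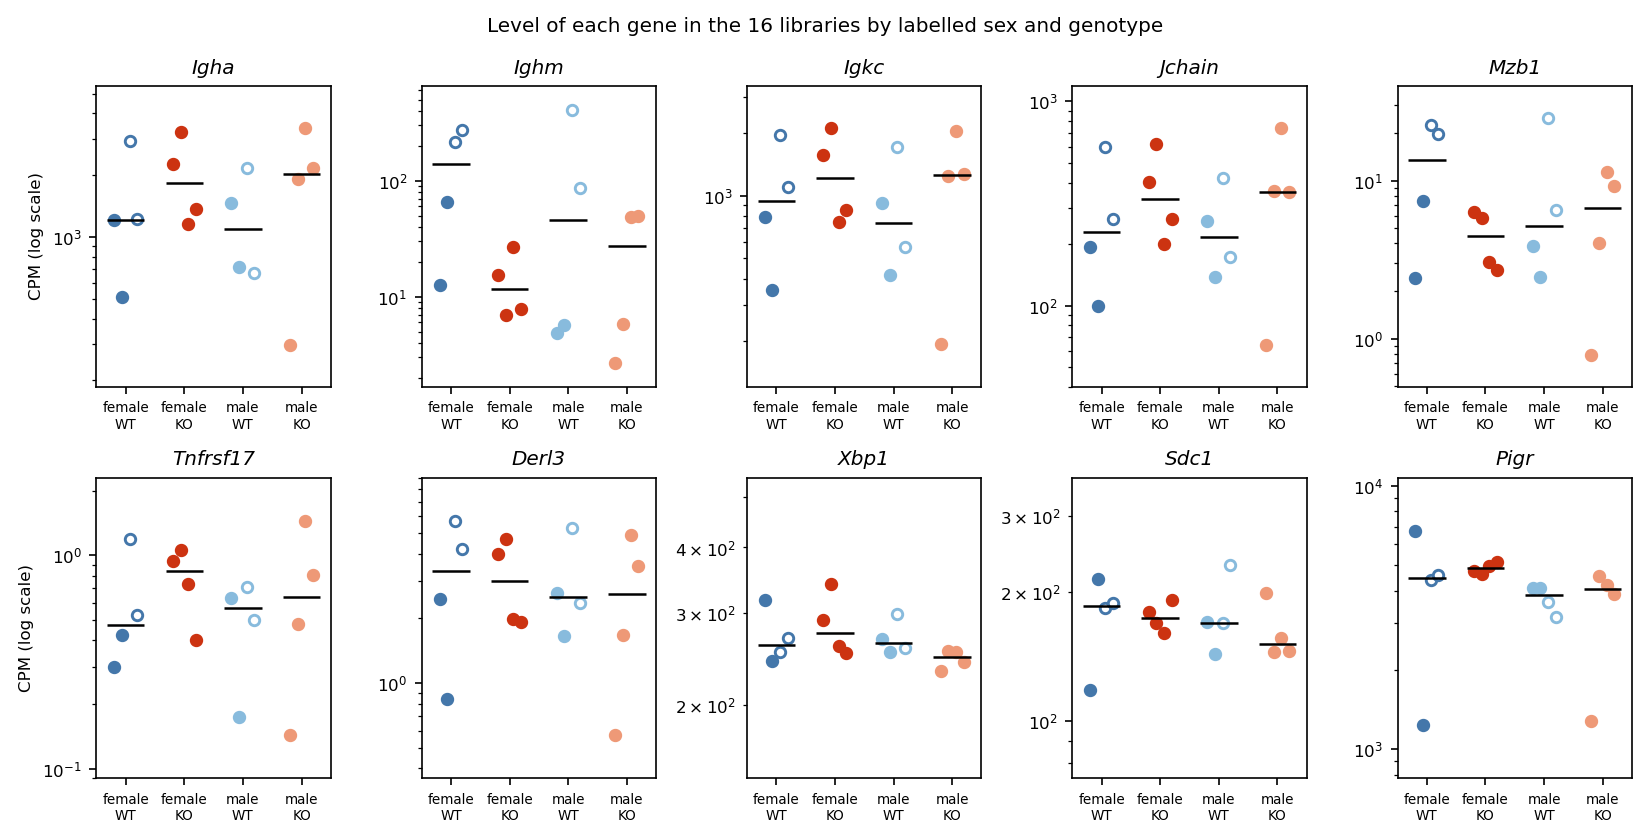
Level of the 10 genes in each of the 16 libraries, 1 panel per gene, in CPM on a log scale against labelled sex and genotype. Points are libraries, short lines are group medians and open points are WT libraries 3 and 4; Ighm is highest in those 4 libraries, while Xbp1 stays between 232 and 340 CPM.

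Among the members listed as plasma cell genes, Mzb1, which encodes a chaperone of the endoplasmic reticulum (ER) that helps antibody assembly, had the largest difference. Over the 16 libraries its log2 CPM followed Cd79a (Pearson's r = 0.921) more closely than Jchain (r = 0.647). It spanned 2.41 to 24.8 CPM in WT with a median of 6.98, and 0.793 to 11.3 CPM in Slfn3KO with a median of 4.92. The ranges overlapped, and the 3 highest libraries were WT 3 and 4 labelled female and WT 3 labelled male. The log2 fold change was -1.05 ± 0.59 (SE, adjusted p = 0.504, edgeR), and 0.39 ± 0.58 without WT libraries 3 and 4 (SE, adjusted p = 0.841, edgeR).

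Tnfrsf17 encodes BCMA, the survival receptor of plasma cells, and was counted only 4 to 41 times per library. It spanned 0.175 to 1.2 CPM in WT with a median of 0.512, and 0.144 to 1.45 CPM in Slfn3KO with a median of 0.772. The lowest and the highest library were again male Slfn3KO 1 and 3. Its log2 fold change was 0.43 ± 0.42 (SE, adjusted p = 0.691, edgeR). Derl3, which encodes a protein of the channel that removes misfolded proteins from the ER, spanned 0.846 to 5.67 CPM in WT with a median of 2.55, and 0.576 to 4.87 CPM in Slfn3KO with a median of 2.75. The genotypes overlapped over nearly their whole range, and its log2 fold change was -0.12 ± 0.43 (SE, adjusted p = 0.92, edgeR).

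Both of these genes were counted at low level beside Jchain, and the letters before their starts can be compared. RefSeq promoter sequences of build GRCm38.p6 were held for 6 of the 10 members, and the 250 bases before the start were searched on both strands for 4 motifs. Those were the ER stress response element ERSE (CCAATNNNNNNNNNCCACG), the core TGACGTGG of the unfolded protein response element, the octamer ATTTGCAT bound by B cell factors, and GAAANNGAAA, the repeat found in elements bound by interferon regulatory factors. The end CCACG of ERSE is also the complement of the end of the core TGACGTGG, and no 2 matches overlapped. The 3 sequences printed are Jchain and the 2 members among these 6 whose levels followed it most closely, with matches in capitals.
Derl3, chr10:75893148-75893397, plus strand: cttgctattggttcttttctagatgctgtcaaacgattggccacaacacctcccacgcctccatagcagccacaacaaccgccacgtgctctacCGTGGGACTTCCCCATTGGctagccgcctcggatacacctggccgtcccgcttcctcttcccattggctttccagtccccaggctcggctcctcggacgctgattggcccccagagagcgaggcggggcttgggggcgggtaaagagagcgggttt
Tnfrsf17, chr16:11313559-11313808, plus strand: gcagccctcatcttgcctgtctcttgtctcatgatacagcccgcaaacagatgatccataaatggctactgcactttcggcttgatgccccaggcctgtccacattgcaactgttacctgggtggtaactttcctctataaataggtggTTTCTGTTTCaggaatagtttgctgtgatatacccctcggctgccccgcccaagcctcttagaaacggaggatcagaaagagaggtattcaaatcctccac
Jchain, chr5:88527898-88528147, minus strand: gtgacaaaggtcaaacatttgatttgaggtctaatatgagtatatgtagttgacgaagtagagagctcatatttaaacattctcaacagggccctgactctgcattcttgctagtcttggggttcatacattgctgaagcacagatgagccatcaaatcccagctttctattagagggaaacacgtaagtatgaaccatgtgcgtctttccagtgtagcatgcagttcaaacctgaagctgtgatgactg
Derl3 held an ERSE match on the opposite strand, 138 to 156 bases before its start, and 0.113% of the 32851 promoters held one. Tnfrsf17 held GAAANNGAAA on the opposite strand, 92 to 101 bases before its start, as did 2.98% of promoters. None of the 4 motifs was present in these 250 bases of Jchain, Pigr, Xbp1 or Sdc1, while 1.6% of all promoters held the octamer and 0.563% the core of the unfolded protein response element.

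Xbp1 and Sdc1 were the steadiest members. Xbp1, the transcription factor that expands the secretory apparatus of plasma cells and also acts in Paneth and goblet cells, spanned 243 to 318 CPM in WT with a median of 263, and 232 to 340 CPM in Slfn3KO with a median of 254. Its log2 fold change was -0.03 ± 0.08 (SE, adjusted p = 0.896, edgeR). Sdc1, a surface proteoglycan used to identify plasma cells that epithelial cells also carry, spanned 118 to 230 CPM in WT with a median of 176, and 145 to 198 CPM in Slfn3KO with a median of 164. Its log2 fold change was -0.08 ± 0.12 (SE, adjusted p = 0.809, edgeR). The highest library was 1.47 times the lowest for Xbp1 and 1.95 times for Sdc1, against 11.4 times for Igha and 154 times for Ighm.

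Pigr, the receptor gene that exports IgA (chr1:130826684-130852249, plus strand), was the member with the highest CPM, and most of its libraries lay close together. In libraries labelled female it stood at 6718, 1238, 4369 and 4562 CPM in WT 1 to 4 and at 4743, 4630, 4977 and 5150 CPM in Slfn3KO 1 to 4. In libraries labelled male it stood at 4078, 4081, 3618 and 3182 CPM in WT 1 to 4 and at 1278, 4552, 4209 and 3892 CPM in Slfn3KO 1 to 4. Female WT 2 and male Slfn3KO 1 stood far below the other libraries, 1 in each genotype. Its log2 fold change was 0.05 ± 0.28 (SE, adjusted p = 0.948, edgeR). The same 2 libraries had the lowest Igha, Igkc, Jchain and Derl3, and high levels of the ileal bile acid-binding protein gene Fabp6, at 15715 and 12453 CPM. Male WT 4 had 12873 CPM of Fabp6 with Pigr at 3182 CPM, and the remaining libraries had at most 9755 CPM. The part of this regional marker in the levels of Pigr was not tested.

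Per kilobase of exon, the order of the members over all libraries can be given. Igkc had the highest median, at 1898 RPKM, followed by Pigr at 1066, Igha at 532 and Jchain at 106 RPKM. Xbp1 at 78.8 and Sdc1 at 44.5 RPKM came next. Ighm at 11.1, Mzb1 at 6.72, Derl3 at 1.91 and Tnfrsf17 at 0.711 RPKM were lowest. The ranges of Igha, from 112 to 1275 RPKM, and of Pigr, from 308 to 1669 RPKM, overlapped, so the order of these neighbours was not fixed from library to library.

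Tested across all genes, none of the 10 members differed between Slfn3KO and WT at the threshold used, which is an adjusted p under 0.05 together with a 1.5-fold or larger change. In all mice edgeR called 0 of 14822 genes (0%), while 1770 genes (11.9%) and 1 of the 10 members, Ighm, had an unadjusted p under 0.05. In libraries labelled male it called 0 of 14124 genes (0%), and 542 genes (3.84%) and 0 members had an unadjusted p under 0.05. In libraries labelled female it called 0 of 14064 genes (0%), and 2409 genes (17.1%) and 2 members had an unadjusted p under 0.05. The members' shares were near those of all genes at these sizes. DESeq2 called 54 genes in all mice, 14 in males and 506 in females, and the only member among them was Ighm in females, with a log2 fold change of -3.34 and an adjusted p of 0.0132, where 3.6% of all genes were called. DESeq2 without WT libraries 3 and 4 gave Ighm in females -1.48, with an adjusted p of 0.134. It then called 1261 genes in females (8.62%, 4 Slfn3KO against 2 WT libraries), the only member among them Jchain. The log2 fold change of Jchain was 1.30, with an adjusted p of 0.0463 by DESeq2. On the same libraries edgeR called 0 of 14634 genes. Jchain stood at 194 CPM in female WT 1 and 100 CPM in female WT 2, beside 200 to 619 CPM in female Slfn3KO. Female WT 2 was also low in Pigr, at 1238 CPM.

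By labelled sex, the female and male differences had the same sign for 8 of the 10 members. In females Ighm had a log2 fold change of -3.33 ± 0.88 (SE, n = 4 against 4, adjusted p = 0.236, edgeR) and Mzb1 one of -1.54 ± 0.63 (adjusted p = 0.277, edgeR). In males the same genes had -2.28 ± 1.48 and -0.59 ± 0.90, with adjusted p of 0.925 and 0.939 by edgeR. Igha had 0.44 ± 0.52 in females and 0.62 ± 0.66 in males. The test of the difference between the sexes called 0 of 14822 genes (0%), with 1639 genes (11.1%) and 0 members at an unadjusted p under 0.05, and DESeq2 called 19 genes and 0 members. For Ighm that difference, female minus male, was -1.08 ± 1.76 (SE, adjusted p = 0.819, edgeR). Without WT libraries 3 and 4, Ighm was 2.32 ± 1.35 in males and -1.47 ± 0.72 in females (SE, n = 4 against 2), so that its direction in males turned, with adjusted p of 0.748 and 0.253 by edgeR.

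**Figure D2:**
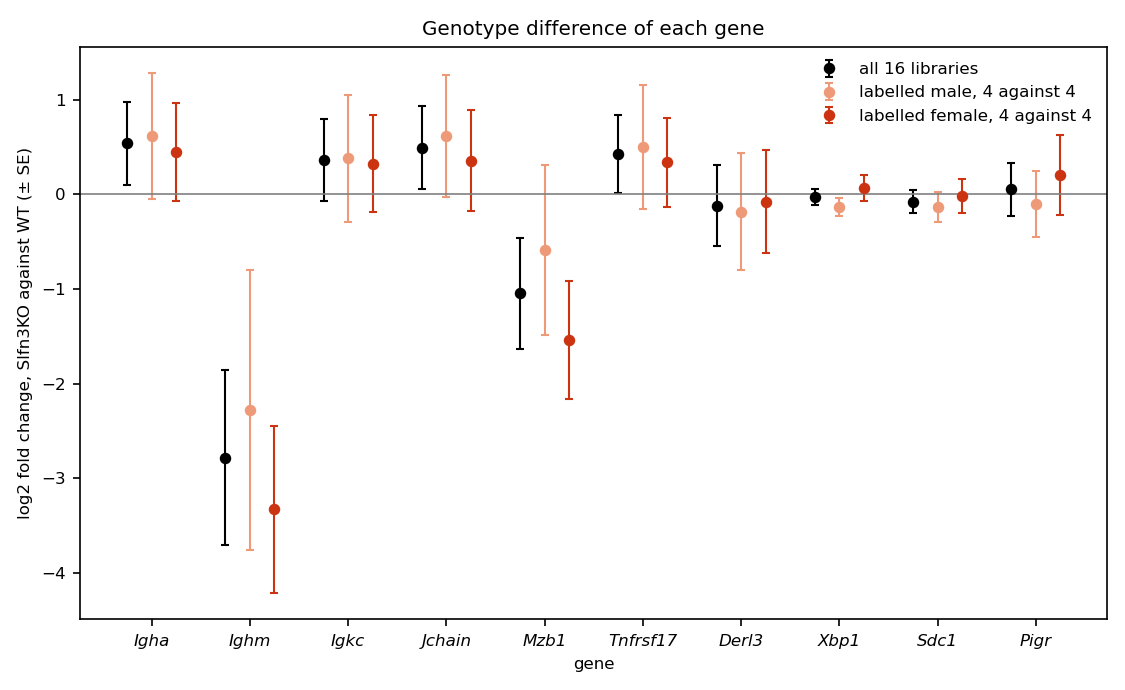
Log2 fold change of each gene in Slfn3KO against WT, with its standard error as a bar, for all 16 libraries and for the libraries of each labelled sex. Igha, Igkc, Jchain and Tnfrsf17 lie above 0 and Ighm and Mzb1 below it in all 3 comparisons, and none passed the adjusted threshold in edgeR.

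Set against Cd79a, the members separated into those that followed the B cell marker and those that did not. Cd79a ran from 0.252 CPM in male Slfn3KO 1 to 89 CPM in male WT 3, and it was above 10 CPM in WT 3 and 4 of both labelled sexes, female WT 2 and male Slfn3KO 3 and 4. In a fit with labelled sex and genotype as covariates, each doubling of Cd79a went with a log2 change of 0.91 ± 0.03 in Ighm (SE, adjusted p = 2.93e-10, edgeR) and of 0.50 ± 0.06 in Mzb1 (SE, adjusted p = 5.31e-05, edgeR). These 2 of the 10 members were called, as were 899 of 14821 genes (6.07%). With the replicate block 88 genes and 1 member, Ighm, were called, and Mzb1 had a slope of 0.64 ± 0.15 (SE, adjusted p = 0.157, edgeR). Without WT libraries 3 and 4 the slopes of Ighm and Mzb1 were 0.87 ± 0.05 and 0.49 ± 0.10 (SE), and both were called among 192 genes.

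Igha, Igkc and Jchain had smaller slopes on Cd79a that were not called. Per doubling of Cd79a they were 0.18 ± 0.09 for Igha (SE, adjusted p = 0.389, edgeR), 0.22 ± 0.09 for Igkc (adjusted p = 0.236, edgeR) and 0.21 ± 0.09 for Jchain (adjusted p = 0.259, edgeR). Tnfrsf17 had 0.24 ± 0.08 (adjusted p = 0.123, edgeR) and Derl3 0.23 ± 0.08 (adjusted p = 0.134, edgeR). With the called genes, 6 of the 10 members had an unadjusted p under 0.05, as did 15% of all genes. The slopes of Pigr, Xbp1 and Sdc1 lay between -0.004 and 0.02. Leaving out male WT 1 gave Tnfrsf17 a called slope of 0.37 (adjusted p = 0.00756, edgeR), and leaving out female WT 2 gave Derl3 one of 0.24 (adjusted p = 0.0429, edgeR).

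The plain correlations of log2 CPM with Cd79a over the 16 libraries were again highest for Ighm and Mzb1. Pearson's r was 0.991 for Ighm and 0.921 for Mzb1, each with a permutation p of 1e-05, the smallest that 100000 resamples can give, and 5.5e-05 after adjustment over the 11 relations computed. Spearman's rho was 0.985 and 0.882, with permutation p of 1e-05 and 3e-05. Derl3 had r = 0.597 (permutation p = 0.0139, adjusted p = 0.0382) and rho = 0.621 (permutation p = 0.012), and Tnfrsf17 r = 0.541 (permutation p = 0.0305, adjusted p = 0.0671) and rho = 0.5 (permutation p = 0.05). For Igha r was 0.349 (permutation p = 0.184, adjusted p = 0.253) and rho 0.262, for Jchain 0.408 (permutation p = 0.115, adjusted p = 0.181) and 0.341, and for Igkc 0.464 (permutation p = 0.0689, adjusted p = 0.126) and 0.374. Pigr, Xbp1 and Sdc1 had r of 0.076, 0.052 and 0.236, with permutation p of 0.78, 0.847 and 0.377 and adjusted p of 0.847, 0.847 and 0.461.

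Leaving out the 2 libraries farthest from the median of Cd79a, male WT 3 and male Slfn3KO 1, left r at 0.99 for Ighm and 0.878 for Mzb1. Without them r was 0.368 for Derl3 (permutation p = 0.192), 0.416 for Tnfrsf17 (permutation p = 0.136) and 0.047 for Igha (permutation p = 0.873), so the relations of Derl3 and Tnfrsf17 did not hold without those 2 libraries. Within the 12 libraries other than WT 3 and 4, r was 0.979 for Ighm, 0.845 for Mzb1 and 0.413 for Igha. There r was 0.647 for Tnfrsf17 (permutation p = 0.0241) and 0.398 for Derl3 (permutation p = 0.202).

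**Figure D3:**
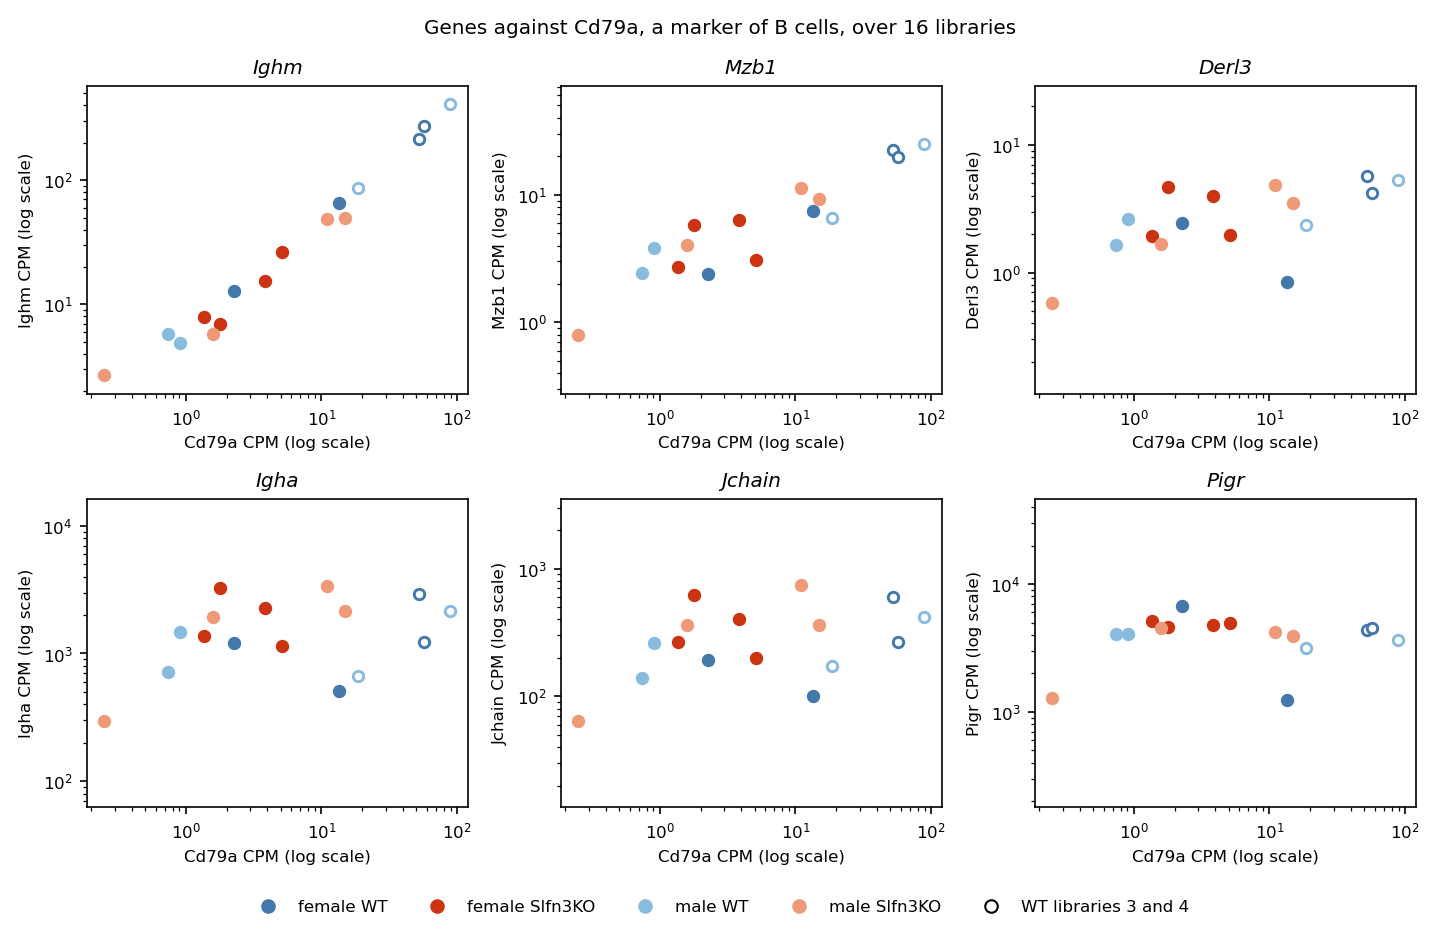
Level of 6 genes against that of Cd79a in each of the 16 libraries, both in CPM on log scales, coloured by labelled sex and genotype, with WT libraries 3 and 4 as open points. Ighm rises with Cd79a over its whole range, Mzb1 less steeply. Jchain stands at 64 CPM in the library lowest in Cd79a and at 421 CPM in the highest, with slopes of 0.18 for Igha, 0.21 for Jchain and -0.004 for Pigr per doubling.

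With log2 Cd79a as a further covariate of the genotype comparison, Igha, Jchain, Tnfrsf17 and Igkc had larger differences. Igha had a log2 fold change of 0.83 ± 0.42, Jchain 0.87 ± 0.40, Tnfrsf17 0.83 ± 0.36 and Igkc 0.76 ± 0.40 (SE, adjusted p = 0.811 for each by edgeR). Ighm had -0.32 ± 0.15, and Mzb1 turned from -1.05 to 0.11 ± 0.28. Again 0 of 14822 genes (0%) were called, and 796 genes (5.37%) and 3 members, Jchain, Tnfrsf17 and Ighm, had an unadjusted p under 0.05. Without WT libraries 3 and 4, and with no such covariate, Igha, Igkc and Jchain had log2 fold changes of 1.02 ± 0.52, 1.01 ± 0.52 and 1.13 ± 0.52 (SE, adjusted p = 0.761 for each by edgeR).

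Within a library, the ratio of a plasma cell transcript to a B cell transcript needs no normalization between libraries. CPM of Jchain was 4.69 to 288 times that of Cd79a in WT, with a median of 10.4, and 24 to 344 times in Slfn3KO, with a median of 150. The log2 ratio was 6.73 ± 1.33 in Slfn3KO and 4.49 ± 2.39 in WT (SD, n = 8 each), a difference of 2.24 (p = 0.0453, exact two-sided permutation test within labelled sex). Counts of Igha were 4.43 to 300 times those of Ighm in WT, with a median of 10.7, and 43.3 to 469 times in Slfn3KO, with a median of 130. The log2 ratio was 6.95 ± 1.27 in Slfn3KO and 4.49 ± 2.37 in WT (SD, n = 8 each), a difference of 2.46 (p = 0.029, exact permutation test). Both differences are relative to the spread between these mice and rest on WT 3 and 4: without them they were 0.55 (p = 0.618, exact permutation test) and 0.78 (p = 0.489, exact permutation test). Log2 CPM of Jchain followed Igha at r = 0.986 and that of Ighm followed Cd79a at r = 0.991, so both ratios largely give the same contrast. Over all mice Igha had a log2 fold change of 0.54 and Ighm one of -2.78.

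By labelled sex the ratio differences had the same sign and none passed the threshold. The log2 ratio of Jchain to Cd79a differed by 3.20 in females (p = 0.0571, exact permutation test) and by 1.28 in males (p = 0.457, exact permutation test). The log2 ratio of Igha to Ighm differed by 3.37 in females (p = 0.0571, exact permutation test) and by 1.54 in males (p = 0.371, exact permutation test). With 4 mice against 4 the smallest p of this test is 0.0286. The log2 ratio of Ighm to Igha correlated with log2 Cd79a at r = 0.849 (permutation p = 8e-05, adjusted p = 0.000293) and rho = 0.829 (permutation p = 0.00017) over 16 libraries. It did so at r = 0.874 without the 2 farthest libraries, and at r = 0.648 (permutation p = 0.0196) without WT libraries 3 and 4. Ighm alone had r = 0.991 with log2 Cd79a and Igha 0.349. The relation of their ratio therefore restates that of Ighm and is not a separate result.

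The make-up of the heavy chains gives the contrast of Igha with Ighm again, on the RPKM scale, and is not a separate result. Igha made up 57.1% to 99.1% of the summed heavy chain RPKM in WT libraries, with a median of 77%, and 93.1% to 99.5% in Slfn3KO, with a median of 98%. Ighm took 0.468% to 18.2% in WT and 0.3% to 3.05% in Slfn3KO, and the genes of IgG together 0.356% to 16.5% in WT and 0.169% to 2.87% in Slfn3KO. The 5 libraries with the lowest share of Igha were WT 3 and 4 of both labelled sexes and female WT 2. In WT 1 of both sexes and male WT 2 the share of Igha was 96.8% to 99.1%, within the range of Slfn3KO. The constant genes of IgG share stretches of near-identical sequence, so their counts are uncertain where reads could be placed on several of them.

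**Figure D4:**
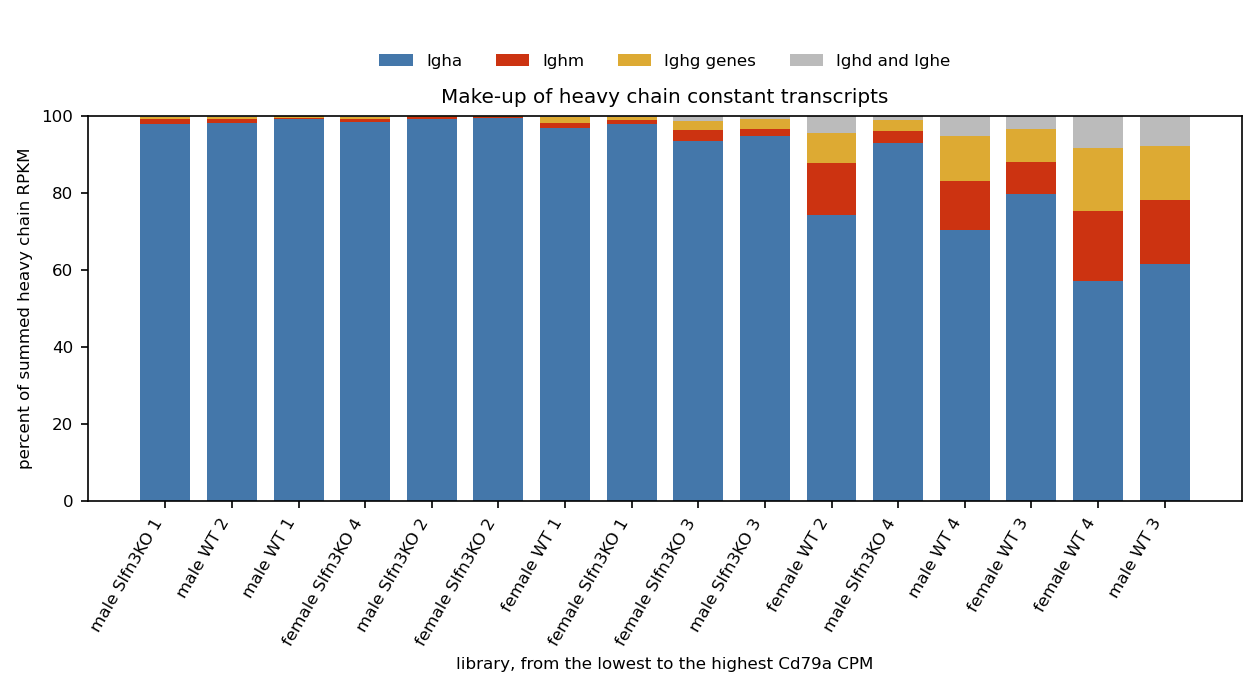
Share of each heavy chain class in the summed heavy chain RPKM of a library, in percent, as stacked bars with the 16 libraries ordered from the lowest to the highest Cd79a CPM. Igha takes 93.1% or more in 11 libraries and 57.1% to 79.8% in WT libraries 3 and 4 and female WT 2.

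The variable genes of the antibodies differ between mice by chance of recombination and by expansion of clones, and their counts are uncertain because near-identical copies share reads. Counts on 113 heavy chain variable genes (Ighv) summed to 1075 to 8224 per library in WT and 483 to 6985 in Slfn3KO. The most used Ighv gene of a library took 8.78% to 42.6% of them, and 8 different genes held that place over the 16 libraries. In female WT 2 it was Ighv1-81, with 42.6% of 1075 counts (95% Wilson interval 39.7% to 45.6%). The most used kappa variable gene there was Igkv1-110, with 35.4% of 1726 counts (95% Wilson interval 33.2% to 37.7%). The same 2 genes led in male Slfn3KO 1, at 10.4% of 483 counts (95% Wilson interval 7.94% to 13.4%) and 11.1% of 837 counts (95% Wilson interval 9.16% to 13.4%). Such sharing of both leading genes was found in 4 pairs of libraries, the others being female Slfn3KO 1 and 4, female Slfn3KO 2 and 3, and male WT 4 with male Slfn3KO 3. The intervals cover counting error only.

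The genes whose levels were most like Jchain over the 16 libraries, by Pearson's r of log2 CPM among 14821 genes, were Igha at 0.986, Igkc at 0.985, the kappa joining segment Igkj2 at 0.931, Derl3 at 0.892 and the non-coding RNA Gm5547 at 0.887. Of the other members, Tnfrsf17 had r = 0.872, Mzb1 0.647, Pigr 0.634, Xbp1 0.419, Ighm 0.319 and Sdc1 -0.257. Pigr was most like Mfsd4a at 0.954, Tm9sf2 at 0.934, Eif1a at 0.924, Tmem50b at 0.917 and AA467197 at 0.91. Those values are descriptions of these libraries, and the 2 libraries with low Pigr weigh heavily in the last set.

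Genes of the wider pathway were read in 5 lists. Of 15 plasma cell factors, all tested, 0 were called in Slfn3KO against WT by edgeR, 6 had an unadjusted p under 0.05 (5 lower, 1 higher) where 11.9% of all genes did, and the median log2 fold change was -0.63, beside -0.004 over all genes. When WT libraries 3 and 4 were left out the count was 1, higher, where 5.8% of all genes had such a p, and the median was 0.15. Prg2, which encodes a granule protein of eosinophils, had -2.19 ± 0.76 (SE). Its median over all libraries was 0.283 CPM, near the detection floor, and it was not tested in males. Pou2af1, a coactivator of B and plasma cells, had -2.19 ± 0.87 (SE). Tent5c, which stabilises antibody mRNA, had 0.37 ± 0.22, and Txndc5, a disulfide isomerase of the ER, 0.21 ± 0.09 (SE). On Cd79a, 7 of the 15 were called, beside 6.07% of all genes, all with positive slopes, among them Pou2af1 at 0.85 ± 0.03 (SE, adjusted p = 1.66e-10, edgeR) and Irf4, a transcription factor of plasma cells, at 0.55 ± 0.05 (SE, adjusted p = 3.07e-06, edgeR). Prdm1, the master regulator of plasma cells, which mature enterocytes also express, had a slope of 0.05 ± 0.07.

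In the ER secretory machinery, 0 of 24 genes were called by edgeR in all mice, by sex or on Cd79a. In all mice 2 had an unadjusted p under 0.05 (1 lower, 1 higher), beside 11.9% of all genes, and the median log2 fold change was -0.09. In males 6 of the 24 did, all lower, beside 3.84% of all genes, with a median of -0.17. They were the chaperones Hspa5, at -0.44 ± 0.13, and Hsp90b1, at -0.43 ± 0.12 (SE), with Pdia4, Pdia6, Dnajc3 and Creld2. In females 2 did (1 lower, 1 higher), beside 17.1% of all genes. For the difference between the sexes, female minus male, 6 of the 24 had an unadjusted p under 0.05, all higher, beside 11.1% of all genes. With WT libraries 3 and 4 left out the male count was 8 (7 lower, 1 higher) beside 7.14%. The count for the difference between the sexes was then also 8 (7 higher, 1 lower) beside 26.9%, and 3 of the 24 were called, beside 2.38% of all genes. Syvn1, a ubiquitin ligase of the ER, had -0.40 ± 0.12 in all mice, Ern2, the stress sensor of goblet cells, 0.25 ± 0.08, and Calr, the chaperone calreticulin, -0.19 ± 0.11 (SE). Their slopes on Cd79a lay between -0.04 and 0.03. Since the epithelium runs the same machinery, these levels are not those of plasma cells alone.

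Of 16 homing and survival genes 13 were tested and 0 were called by genotype. Of the 13, 3 had an unadjusted p under 0.05, all lower, where 11.9% of all genes did, and the median was -0.11. Leaving out WT libraries 3 and 4, 0 had such a p, beside 5.8% of all genes, and the median was 0.14. Ccr10, the chemokine receptor of IgA plasma cells, had a log2 fold change of 0.64 ± 0.38, Ccl25, the chemokine of the small intestine, 0.05 ± 0.14, and Tnfrsf13c, the BAFF receptor of B cells, -2.71 ± 1.05 (SE). On Cd79a 4 of the 13 were called, beside 6.07% of all genes, led by Tnfrsf13c at 1.10 ± 0.06 (SE, adjusted p = 1.5e-08, edgeR), and the vessel addressin Madcam1 had 0.95 ± 0.11 (SE, adjusted p = 1.68e-05, edgeR).

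For class switching to IgA, 15 of 17 genes were tested, 0 were called by genotype, 7 had an unadjusted p under 0.05, all lower, where 11.9% of all genes did, and the median was -0.76. Their counts rested on WT libraries 3 and 4, without which 0 had such a p, beside 5.8% of all genes, and the median was 0.06. The summed CPM of the list had a median of 501 in WT 3 and 4, 233 in WT 1 and 2 and 241 in Slfn3KO. Ung, a uracil glycosylase, had a log2 fold change of 0.41 ± 0.26, and Aldh1a1, an enzyme of retinoic acid synthesis, -0.36 ± 0.35 (SE). On Cd79a 8 of the 15 were called, beside 6.07% of all genes, all with positive slopes, among them Tgfb1, the switch cytokine, at 0.29 ± 0.04 (SE, adjusted p = 0.000171, edgeR).

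Of 10 other immunoglobulin constant genes 8 were tested and 0 were called by genotype. Of the 8, 5 had an unadjusted p under 0.05, all lower, where 11.9% of all genes did, and the median was -2.08. In the fit without WT libraries 3 and 4, 0 had such a p, beside 5.8% of all genes, and the median was 0.49. Ighd, the IgD gene, had -3.18 ± 1.14 and Ighg2b, the highest in median CPM, -2.93 ± 1.10 (SE), while the lambda gene Iglc2 had -0.77 ± 0.59 (SE). All 8 were called on Cd79a, beside 6.07% of all genes, with slopes from 0.52 for Iglc2 to 1.22 for Ighd. The 15 markers of follicle B cells, Cd79a and Ighd among them, summed to 16.4 to 1500 CPM in WT and 13.4 to 216 CPM in Slfn3KO, and to 309 to 1500 CPM in WT 3 and 4, and at least 3 counts were found for all 15 in every WT library and for 11 to 15 in Slfn3KO libraries. Of these, 0 were called by genotype and 15 had an unadjusted p under 0.05, all lower, where 11.9% of all genes did. Their median log2 fold change was -2.99. This too rested on WT libraries 3 and 4, whose summed CPM had a median of 847, beside 29.6 in WT 1 and 2 and 41.8 in Slfn3KO. Without them 0 of the 15 had an unadjusted p under 0.05 in all mice, beside 5.8% of all genes. The median was then 0.22 in all mice, 3.35 in males and -1.41 in females. The part of follicle B cells in the differences of Ighm, Mzb1 and the switching genes was not tested beyond the fits on Cd79a.

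Markers of other cells were read in the same fit. The median log2 fold change was -0.52 over 8 T cell markers, -0.18 over 6 macrophage markers, -0.09 over 10 epithelial markers, 0.21 over 10 markers of Paneth and goblet cells and 0.35 over 8 of stroma and muscle, with 0 genes called in each. In females 6 of the 10 Paneth and goblet cell markers had an unadjusted p under 0.05, all higher, beside 17.1% of all genes. That count was 7 (5 higher, 2 lower) beside 24% without WT libraries 3 and 4. The 4 ileum markers had a median of -0.24 and the 4 of duodenum and jejunum one of -0.99. The latter was 0.57 in males, with all 4 higher, and -2.55 in females, with all 4 lower and 2 at an unadjusted p under 0.05. These were 0.01 and -3.35 without WT libraries 3 and 4.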

How the data were processed

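Mucosal RNA of 16 mice was sequenced as single 50-base reads over 2 lanes. The authors trimmed with cutadapt and aligned with STAR to mm10, and deposited raw counts per gene without normalization. Per the file header, featureCounts 1.4.6 counted on the reverse strand, whereas the methods name HTSeq. Reads placed on several loci are dropped by default, which lowers counts of near-identical immunoglobulin genes. The deposited table also holds exon lengths in bases, used for RPKM.

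Symbols from GENCODE M21 matched 45143 of 46078 identifiers. Totals ran from 20823279 to 30813117 counts, and floors cover counting error only. Groups came from the labels. CPM used TMM factors, and log2 CPM a prior count of 2. Fold changes came from edgeR 4.0.16 in R 4.3.3 (filterByExpr, robust quasi-likelihood F test, Benjamini-Hochberg adjustment over all genes tested). SE is the absolute log2 change over the square root of F. Ratios were compared by exact permutation, correlations by 100000 resamples (numpy 2.4.6, scipy 1.17.1). The edgeR fits and the permutation test of the ratios were tested on simulated data. The labels do not say that mice of 1 group were housed or prepared apart, so p-values measure the spread between these samples.

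Alternatives were RLE factors, library sizes without immunoglobulin genes, no filter, at least 10 counts in every library, DESeq2 1.42.0, no sex covariate, Cd79a as a covariate, 1 fit of all groups, other B cell markers, a prior count of 0.5, each library left out, WT 3 and 4 left out, and the replicate number as a block. Deviations of same-numbered libraries from their group means correlated between 0.138 and 0.518 in males and between -0.362 and 0.143 in females. The labels state no pairing, and these correlations cannot establish one. The ratios Jchain/Igha and Ighm/Igha, the lists without WT 3 and 4, and DESeq2 in females without them were added after seeing the data. The named genes are the 10 members, Cd79a, the largest rise and fall and the most abundant gene of each list, the most used variable genes, and the 5 genes most like Jchain and Pigr. Pou2af1, Irf4, Prdm1, Hspa5, Hsp90b1, Pdia4, Pdia6, Dnajc3, Creld2, Madcam1, Tgfb1 and Fabp6 were named after their values were seen. 1 gene that this rule names is not reported here. Members and lists were chosen with earlier results of these data known.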

Additional observations from a re-analysis of the deposited data

Results flagged for a closer look

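Of the 56 groups of 4 libraries examined for a library far from the others, 1 held one, and chance gives about 1 in 20. The log2 CPM of Pigr was 10.32 in male Slfn3KO 1, while the other 3 male Slfn3KO libraries lay between 11.93 and 12.15, so that the gap to the nearest was 0.877 of the range of the group. The same library had the lowest Igha, at 298 CPM, the lowest Cd79a, at 0.252 CPM, and 12453 CPM of Fabp6. Whether these values have a common source was not tested. Without it the log2 fold change of Pigr in males was 0.17 instead of -0.10.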

How the results depend on the processing

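Of the results that answer a comparison, 200 alternative values kept their direction and side of the threshold, and 32 did not. Without WT libraries 3 and 4 (4 of 8 WT mice) the log2 ratio differences fell to 0.55 for Jchain/Cd79a and 0.78 for Igha/Ighm. With each library left out in turn they ran from 1.92 to 2.75 and from 2.12 to 2.99, passing the threshold in 6 and 10 of 16 cases. DESeq2 called 54 genes in all mice, 14 in males, 506 in females (with 1 member) and 19 by sex, where edgeR called 0. In females without WT 3 and 4 (4 against 2 libraries) DESeq2 called 1261 genes (with 1 member, Jchain), where edgeR again called 0. Without WT 3 and 4, 359 genes differed by sex. Of the genes following Cd79a, 899 at the setting reported, 535 were called with at least 10 counts in every library, 192 without WT 3 and 4, 88 with the replicate block (1 member), and 522 to 1147 with each library left out, lowest without male WT 3. Without the 2 libraries farthest from the median, 2 members correlated with Cd79a at an unadjusted p under 0.05, instead of 4. The causes were not tested. The replicate block (a fit that matches libraries by number, a pairing that the labels do not state) changed no genotype call.

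Directions that turned belong to values that passed no threshold. Without WT 3 and 4 the log2 fold changes were 0.39 for Mzb1, 0.60 for Derl3 and 0.06 for Sdc1 in all mice, 2.32 for Ighm, 1.01 for Mzb1, 0.31 for Derl3 and 0.05 for Sdc1 in males, and 0.92 for Derl3 and 0.06 for Sdc1 in females. The differences by sex were then 0.39 for Igha, 0.36 for Igkc, 0.39 for Jchain and 0.27 for Tnfrsf17, the Cd79a slope of Sdc1 -0.02, the log2 Jchain/Igha difference 0.07, and r with Cd79a -0.051 for Xbp1 and -0.044 for Sdc1. DESeq2 without WT 3 and 4 gave -0.01 for Xbp1, 0.89 for Derl3 and 0.05 for Sdc1 in females. With Cd79a as a covariate Mzb1 was 0.11 and Derl3 0.29. The replicate block gave 0.05 for Derl3 and 0.02 for Sdc1 in females and sex differences of 0.09 for Igha, 0.14 for Igkc, 0.11 for Jchain and 0.07 for Tnfrsf17. Other B cell markers gave r = -0.003 for Xbp1, leaving out the 2 farthest libraries -0.306 for Xbp1 and -0.291 for Pigr, and no covariates a Cd79a slope of 0.002 for Xbp1.

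With each library left out, log2 fold changes in all mice ran from -0.35 to 0.08 for Derl3, -0.11 to 0.18 for Pigr and -0.08 to 0.003 for Xbp1. In females they ran from -0.40 to 0.31 for Derl3, -0.003 to 0.80 for Igkc, -0.01 to 0.98 for Jchain, -0.10 to 0.52 for Pigr, -0.16 to 0.09 for Sdc1 and -0.03 to 0.16 for Xbp1. In males they ran from -0.66 to 0.27 for Derl3, -0.02 to 0.92 for Igkc, -1.03 to 0.59 for Mzb1, -0.26 to 0.17 for Pigr and -0.12 to 0.84 for Tnfrsf17. Differences by sex ran from -0.33 to 0.57 for Derl3, -0.58 to 0.41 for Igha, -0.57 to 0.43 for Igkc, -0.65 to 0.37 for Jchain, -0.003 to 0.63 for Pigr, -0.03 to 0.23 for Sdc1 and -0.51 to 0.44 for Tnfrsf17. Cd79a slopes ran from -0.05 to 0.03 for Pigr, -0.01 to 0.04 for Sdc1 and -0.02 to 0.004 for Xbp1. Depth limits Tnfrsf17 most, at 4 to 41 counts, and Mzb1 and Derl3, at 22 to 729 and 16 to 156.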
